A study of Mus musculus with 24 samples.

Results

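The 41 genes described here mark Kupffer cells and other macrophages of the liver, and they were found by their symbols among the 54532 genes counted in RNA of whole mouse liver. All 41 symbols were matched. The livers came from 24 male mice of 8 to 10 weeks, of a strain given as C57/BL6J, that had been fasted for 24 h, with 4 animals in each of 6 genotype groups. The study asked how loss of Rab30, a small GTPase of the Golgi whose mRNA is abundant in livers that cannot burn fatty acids, changes the fasted liver on its own and together with loss of Cpt2, an enzyme that mitochondria need to take in long-chain fatty acids.

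Rab30KO mice lacked exon 4 of Rab30 in every cell, and their wild-type littermates (Rab30 Ctrl) were their controls. Rab30L-/- mice had lost Rab30, Cpt2L-/- mice Cpt2 and DKO mice both genes through Cre under the albumin promoter, which acts in hepatocytes, so that macrophages of these 3 groups should have kept both genes. The ff;ff mice carried floxed Rab30 and Cpt2 alleles without Cre. The labels call them littermates of the DKO mice only, and they were also the reference here for Rab30L-/- and Cpt2L-/-, which means that those 3 comparisons share 4 control livers. Rab30KO is the one group whose macrophages carried a deletion themselves.

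Kupffer cells are the resident macrophages of the liver sinusoids. They clear particles, microbes and aged red cells from the blood, depend on signalling through the receptor Csf1r, and carry a typical set of surface proteins such as Clec4f, Vsig4 and Timd4. In livers loaded with fat, macrophages of another kind are known, called lipid-associated, which express genes of lysosomes and lipid handling such as Trem2, Gpnmb, Cd9 and Spp1, and monocytes can enter the tissue through Ccr2 and become macrophages. Gpnmb, Cd63, Cd68, Cd9 and Lgals3 are not particular to macrophages. In RNA of whole liver, fewer cells of a type and less RNA per cell cannot be told apart, nor can the cell that made a transcript be named.

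The libraries held between 11801027 and 24497738 counts, with a median of 14358966. Whole-gene counts separated the livers by the deleted genes only in part. Rab30 was at 5.38 to 17.4 counts scaled to a library of 1000000 (CPM) in Rab30KO against 6.63 to 30.1 in Rab30 Ctrl, and Cpt2 was at 95.2 to 167 CPM in Cpt2L-/- against 128 to 139 in ff;ff, with overlap in both. In Rab30L-/- Rab30 was at 10.4 to 26.6 CPM against 25.8 to 44.6 in ff;ff, which overlap slightly, and in DKO Cpt2 was at 96.0 to 120 CPM, below every ff;ff liver, while Rab30, at 101 to 231 CPM, was above every one and overlapped with Cpt2L-/-, at 122 to 188 CPM. A gene count includes every exon that was left in place, so it tests these labels poorly, and groups are used as labelled. A pair of libraries stood apart for these genes. KO3, of the Rab30KO group, was the highest of the 8 Rab30KO and Rab30 Ctrl libraries in 35 of the 41 members, and Rab30cff978, of the Rab30L-/- group, was the highest of the 8 Rab30L-/- and ff;ff libraries in 26. The main values of these groups are given with and without them.

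Per transcript length (fragments per kilobase of transcript, scaled to the library's depth, FPKM, mean of 24 libraries), the members of highest level were Cd74 at 63.7, the scavenger protein Cd5l at 49.7, the Kupffer cell lectin Clec4f at 41.9 and lysozyme Lyz2 at 29.6. Of the other resident cell markers, Vsig4 was at 21.3 and Csf1r at 12.9, and Adgre1 at 6.10 and Timd4 at 4.44 stood in the middle of the order. At the bottom were the monocyte markers Itgam at 0.0712, Cx3cr1 at 0.101, Ly6c2 at 0.193 and Ccr2 at 0.243, the inflammatory mediators Tnf at 0.113 and Ccl2 at 0.212, and Mmp12 at 0.113, Trem2 at 0.117 and Itgax at 0.214 from the lipid-associated list. Tnf had no count in 8 libraries, among them all 4 DKO livers, and Ccl2 had none in 4.

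In Cpt2L-/- livers, 7 members rose and 5 fell against ff;ff among the 34 that could be tested, and in DKO livers 5 rose and 4 fell among 33. A gene was called when its edgeR quasi-likelihood p, adjusted over all tested genes by the method of Benjamini and Hochberg, was under 0.05 and its change was at least 1.2-fold. Calls were common in these livers, with 23.8% of all tested genes called in Cpt2L-/- (11.9% higher and 11.9% lower) and 16.1% in DKO (7.87% higher and 8.24% lower). The median log2 fold change of the members was -0.33 in Cpt2L-/- and -0.16 in DKO, against -0.00 and -0.02 over all tested genes. It ran from -0.43 to -0.13 and from -0.37 to -0.11 when single libraries were left out. The value nearest 0 came without ffff248 in both, and the farthest without Cpt2801 and DKO233. Markers of other cell types, described below, had medians of -0.33 in Cpt2L-/- and -0.42 in DKO, as low as the members or lower. Related macrophage genes had medians of -0.25 and -0.19. The 4 livers of Cpt2L-/- and of ff;ff did not overlap in 7 members, where this held for 26.7% of all tested genes, nor did those of DKO and ff;ff in 7 members, against 20.5%. The 5 members that were called higher in DKO are lysosome, tetraspanin and galectin genes, and the members called lower in either group are 5 resident cell markers, the scavenger receptor Cd163 and a proton pump subunit. Mmp12, Itgax, Ly6c2, Cx3cr1, Itgam, Ccl2 and Tnf were too low to test in either comparison, and Trem2 in DKO.

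**Figure D1:**
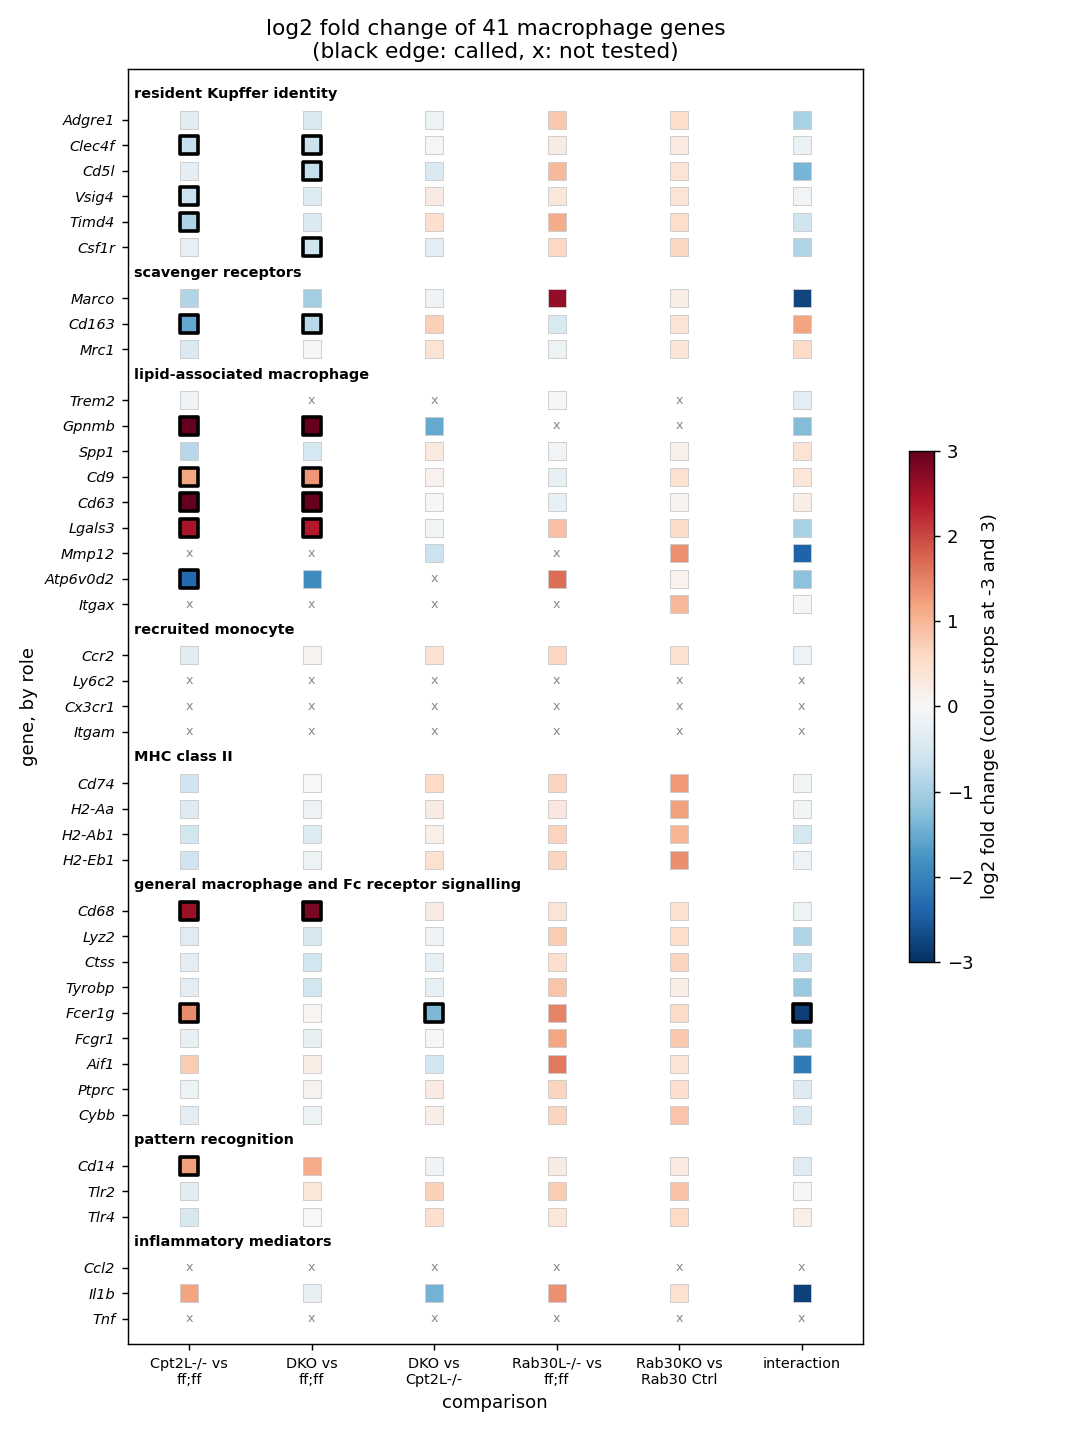
Log2 fold change of each of the 41 members (rows, ordered by role) in 5 comparisons and in the interaction of Rab30 and Cpt2 loss (columns), as colour from -3 to 3. A black edge marks a called gene and a cross a gene that was not tested; edges gather in the Cpt2L-/- and DKO columns, with 12 and 9 called members, and the Rab30L-/- and Rab30KO columns have none.

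Gpnmb, a glycoprotein of lysosomes and the cell surface, had the largest change of any member. It was at 0.0873, 0.709, 0.487 and 0.190 CPM in the 4 ff;ff livers, at 22.3, 23.4, 28.1 and 29.3 CPM in the Cpt2L-/- livers, and at 9.35, 4.96, 16.8 and 4.36 CPM in the DKO livers. Every Cpt2L-/- and DKO liver was thus above every ff;ff liver, and every DKO liver below every Cpt2L-/- liver. The log2 fold change against ff;ff was 6.01 ± 0.34 (SE, adjusted p = 2.99e-07) in Cpt2L-/- and 4.48 ± 0.60 (SE, adjusted p = 0.000664) in DKO. These rest on 1 to 12 counts per ff;ff library, against 348 to 470 in Cpt2L-/-. The difference of DKO from Cpt2L-/-, -1.54, missed the threshold with an adjusted p of 0.069.

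Cd63, a tetraspanin of late endosomes and lysosomes, was at 1.83, 3.13, 3.41 and 3.17 CPM in ff;ff, at 15.9, 24.3, 33.9 and 24.0 CPM in Cpt2L-/-, and at 18.6, 10.2, 21.8 and 44.8 CPM in DKO. Neither group of livers overlapped with ff;ff. It rose 8.31-fold in Cpt2L-/- (log2 3.06 ± 0.25 SE, adjusted p = 5.71e-06) and 8.15-fold in DKO (log2 3.03 ± 0.42 SE, adjusted p = 0.00109). Cd68, the lysosomal membrane protein widely used to stain macrophages, was at 5.41, 4.67, 5.78 and 8.24 CPM in ff;ff, at 28.5, 40.6, 48.4 and 30.3 CPM in Cpt2L-/-, and at 28.7, 23.3, 60.0 and 62.3 CPM in DKO. Here too the lowest liver without Cpt2 stood well above the highest ff;ff liver. Cd68 rose 6.06-fold in Cpt2L-/- (log2 2.60 ± 0.22 SE, adjusted p = 6.23e-06) and 7.20-fold in DKO (log2 2.85 ± 0.34 SE, adjusted p = 0.000435).

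Lgals3, which encodes the sugar-binding protein galectin-3, was at 1.48, 2.54, 3.27 and 2.85 CPM in ff;ff, at 8.96, 11.6, 22.8 and 15.2 CPM in Cpt2L-/-, and at 15.6, 6.64, 15.1 and 17.2 CPM in DKO. The groups did not overlap, and Lgals3 rose 5.64-fold in Cpt2L-/- (log2 2.50 ± 0.31 SE, adjusted p = 9.94e-05) and 5.29-fold in DKO (log2 2.40 ± 0.32 SE, adjusted p = 0.000525). The calls of Gpnmb, Cd63, Cd68 and Lgals3 in both comparisons held when any single library was left out and under the other settings in which each was tested. Gpnmb was not tested where 10 counts were asked of each library.

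The tetraspanin Cd9 and the lipopolysaccharide co-receptor Cd14 rose less. Cd9 was at 6.89, 7.26, 17.3 and 11 CPM in ff;ff, at 14.5, 21.4, 34.2 and 28.3 CPM in Cpt2L-/-, which overlaps with ff;ff, and at 19.0, 22.0, 26.5 and 38.9 CPM in DKO, which does not. Its log2 fold change was 1.19 ± 0.32 (SE, adjusted p = 0.0186) in Cpt2L-/- and 1.31 ± 0.31 (SE, adjusted p = 0.0162) in DKO, and the Cpt2L-/- call was lost without ffff238, Cpt2801 or Cpt2802, with adjusted p-values of 0.0572, 0.0557 and 0.054, and without the low-count filter (Cd9, adjusted p = 0.0615). Cd14 was at 1.57, 3.31, 6.96 and 3.61 CPM in ff;ff, at 4.61, 8.43, 13.1 and 11.7 CPM in Cpt2L-/-, and at 5.16, 3.87, 13.3 and 11.9 CPM in DKO. In both comparisons the ranges of Cd14 overlapped. The log2 fold change was 1.26 ± 0.41 (SE, adjusted p = 0.0421) in Cpt2L-/- and 1.13 ± 0.48 (SE, adjusted p = 0.143) in DKO. The Cpt2L-/- call of Cd14 was lost without any one of ffff238, ffff240, ffff248, Cpt2166, Cpt2801 or Cpt2802, with log2 values of 1.02 to 1.31 and adjusted p-values between 0.0708 and 0.113, without the low-count filter (adjusted p = 0.0854) and in the fit over all 24 libraries (adjusted p = 0.108).

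**Figure D2:**
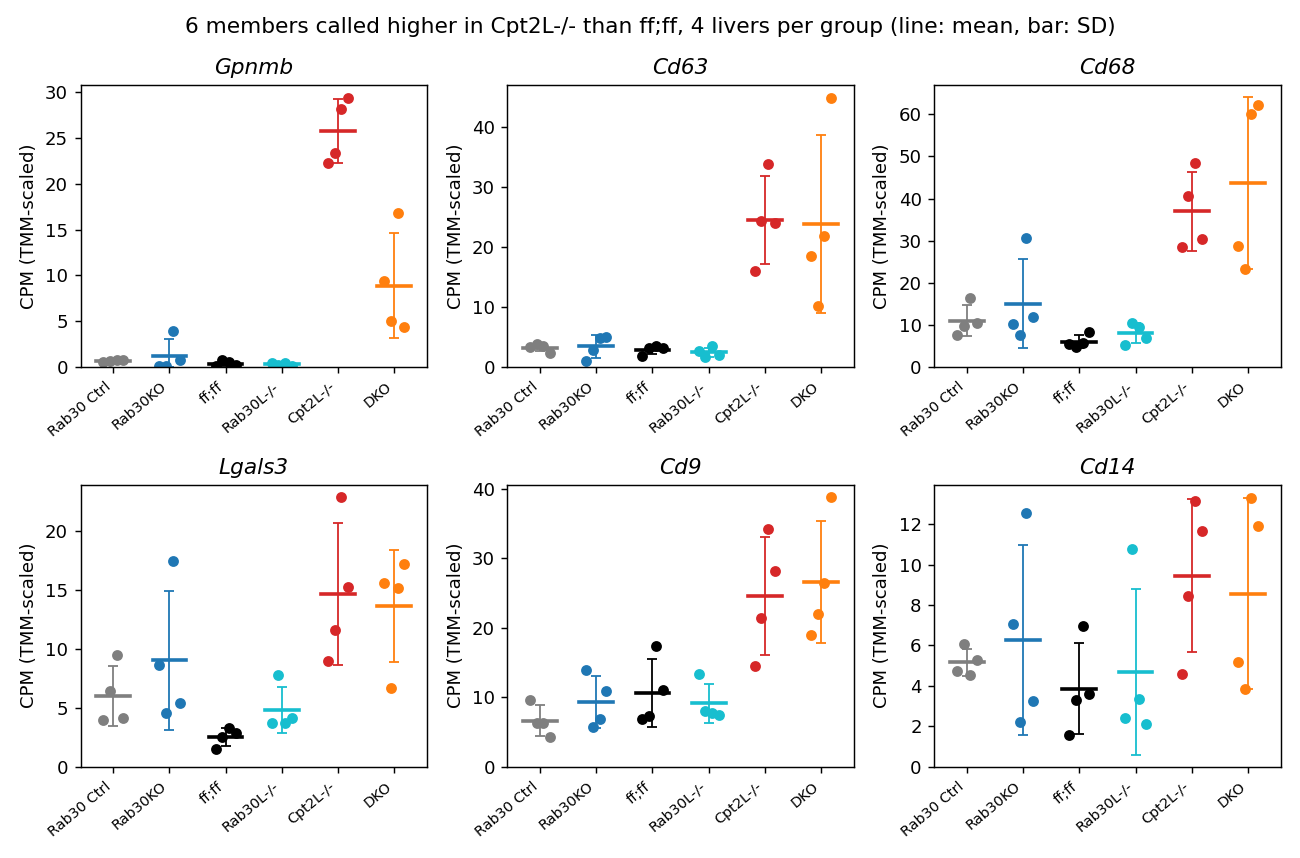
Levels of Gpnmb, Cd63, Cd68, Lgals3, Cd9 and Cd14 (1 panel each, CPM on the vertical axis) in each of the 4 livers of the 6 groups, with the group mean as a line and the SD as a bar. Gpnmb lies between 22.3 and 29.3 CPM in the Cpt2L-/- livers and between 4.36 and 16.8 in the DKO livers, and the highest value in any other group is 3.90 CPM, in KO3.

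Not every gene of the lipid-associated list rose. Of its 9 genes, 7 were tested in Cpt2L-/-, where 4 rose and 1 fell, and 6 in DKO, where 4 rose. Mmp12, a macrophage elastase, was below the count filter, at 0.262, 0.177, 0.139 and 0.127 CPM in ff;ff, 1.73, 1.07, 0.906 and 0.561 CPM in Cpt2L-/- and 0.390 to 0.937 CPM in DKO, so that neither of these groups overlapped with ff;ff. In the 3 other settings that tested Mmp12 it was called higher in Cpt2L-/-, with log2 values of 2.57 to 2.61 and adjusted p-values of 0.000783 to 0.0287, and not called in DKO (adjusted p from 0.0509 to 0.138). Trem2, the lipid receptor that defines such macrophages, was at 0.236 to 1.14 CPM in ff;ff, at 0.374 to 0.817 in Cpt2L-/- and at 0.139 to 0.797 in DKO, with a log2 difference of -0.14 ± 0.57 (SE, adjusted p = 0.889) between Cpt2L-/- and ff;ff. Spp1, which encodes osteopontin, was not called in either group, with log2 values of -0.83 ± 0.44 (adjusted p = 0.212) and -0.53 ± 0.33 (adjusted p = 0.316). Atp6v0d2, a subunit of the proton pump of lysosomes that macrophages and osteoclasts use, was at 1.05, 2.30, 2.16 and 0.888 CPM in ff;ff and at 0.576, 0.314, 0.194 and 0.187 CPM in Cpt2L-/-. All Cpt2L-/- livers were lower, and Atp6v0d2 fell 5.01-fold (log2 -2.33 ± 0.49 SE, adjusted p = 0.00396). In DKO it was at 0.0697, 1.48, 0.195 and 0.0469 CPM, with a log2 value of -1.88 ± 0.81 (SE, adjusted p = 0.148) that became -3.92 (adjusted p = 0.00358) without DKO233, its one high liver.

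Genes of lipid handling in macrophages that are no members, from a list of 15 tested genes, gave 4 higher and 1 lower in Cpt2L-/-, and again 4 higher and 1 lower in DKO. Of all tested genes, 23.8% and 16.1% were called. The list as a whole did not rise, with 9 of 15 log2 values negative in each comparison and medians of -0.20 and -0.09. Cd36, a fatty acid and lipoprotein receptor, went from 11.1 to 31.7 CPM in ff;ff to 183 to 211 CPM in Cpt2L-/- and 117 to 198 CPM in DKO, log2 fold changes of 3.40 ± 0.31 and 3.08 ± 0.36 (SE). Plin2, the coat protein of lipid droplets, rose by 2.59 ± 0.22 and 2.45 ± 0.23 on the log2 scale, and the lysosomal lipase Lipa by 1.66 ± 0.18 and 1.54 ± 0.18. Fabp4, a fatty acid carrier, rose as well, by 1.23 ± 0.25 and 1.52 ± 0.24, while the cholesterol exporter Abca1 fell by 0.58 ± 0.17 in Cpt2L-/- and Apoe, the lipoprotein ligand, by 1.28 ± 0.23 in DKO. Hepatocytes also express most of these genes, and their share in the rise was not tested.

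The promoters of Gpnmb and Cd68 are shown because these genes rose together and both windows hold the AP-1 motif TGAGTCA. AP-1 is a family of factors induced by stress and by activation of macrophages. Each window runs from 250 bases before to 50 bases after the RefSeq start (GRCm38.p6), is written 5′ to 3′ on the gene's strand, and has motif matches in capitals. In Gpnmb (chr6:49036268-49036567, plus strand) the capitals mark TGACTCA, the reverse complement of TGAGTCA, and in Cd68 (chr11:69666121-69666420, minus strand) TGAGTCA in 2 places and GGAAGT, the core bound by PU.1, the factor that sets macrophage fate.
Gpnmb: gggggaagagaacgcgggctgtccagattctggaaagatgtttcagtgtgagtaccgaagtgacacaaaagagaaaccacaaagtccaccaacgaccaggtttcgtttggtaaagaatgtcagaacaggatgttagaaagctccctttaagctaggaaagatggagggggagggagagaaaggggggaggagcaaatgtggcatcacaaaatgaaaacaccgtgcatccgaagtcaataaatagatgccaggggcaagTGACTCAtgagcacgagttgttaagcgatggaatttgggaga
Cd68: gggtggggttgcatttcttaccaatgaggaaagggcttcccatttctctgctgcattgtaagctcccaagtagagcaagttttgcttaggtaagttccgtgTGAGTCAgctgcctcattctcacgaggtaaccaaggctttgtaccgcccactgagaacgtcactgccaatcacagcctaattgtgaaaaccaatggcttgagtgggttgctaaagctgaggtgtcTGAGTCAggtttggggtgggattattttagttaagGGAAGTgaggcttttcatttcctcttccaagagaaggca
On both strands, TGAGTCA was found in 2 of the 5 members called higher in both groups (Gpnmb, Cd63, Cd68, Lgals3 and Cd9) and in 4 of 32 members with one, against 5.2% of all 32851 promoters. GGAAGT was found in 17 of 32 members against 23.8% of all promoters. The motif CACGTG, an E-box read by factors of lysosome genes, was in 7.15% of all promoters and in 0 of 32 members, these 5 among them. Such matches describe the letters of the window and show no binding.

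Resident Kupffer cell genes leaned the other way. All 6 genes of that list (Adgre1, Clec4f, Cd5l, Vsig4, Timd4 and Csf1r) had negative log2 values in both comparisons, with medians of -0.49 in Cpt2L-/- and -0.53 in DKO. In each comparison 3 of 6 were called lower, where 11.9% and 8.24% of all tested genes were. Summed over the 6 genes, livers of ff;ff had 161 to 291 CPM, Cpt2L-/- 135 to 187 CPM and DKO 132 to 155 CPM. Such a lean was not particular to them. All 7 genes of a hepatocyte list were negative too, with medians of -0.86 and -0.83 and 4 called lower in each comparison. Of 7 stellate cell genes, 6 were positive in Cpt2L-/- and 5 in DKO.

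Clec4f, a lectin found on Kupffer cells alone in mouse liver, was at 81.3, 55.4, 93.0 and 108 CPM in ff;ff, at 56.6, 43.6, 62.9 and 48.5 CPM in Cpt2L-/-, and at 46.0, 54.4, 57.6 and 57.8 CPM in DKO. The lowest ff;ff liver, ffff240, lay within both ranges. Clec4f fell 1.61-fold in Cpt2L-/- (log2 -0.69 ± 0.19 SE, adjusted p = 0.0207) and 1.57-fold in DKO (log2 -0.65 ± 0.19 SE, adjusted p = 0.0332). The Cpt2L-/- call was lost without ffff248, Cpt2166 or Cpt2802 (adjusted p = 0.0718, 0.0676 and 0.0664), and the DKO call without ffff242, ffff248 or any single DKO liver (adjusted p from 0.0569 to 0.107, log2 from -0.68 to -0.51).

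The other called members of the list differed between the groups, though the test of DKO against Cpt2L-/- called none of them. Vsig4, the complement receptor of Kupffer cells, was at 29.8, 17.5, 18 and 26.1 CPM in ff;ff, at 13.3, 13.7, 19.0 and 12.7 CPM in Cpt2L-/-, and at 15.2, 17.5, 19.0 and 17.2 CPM in DKO, with log2 values of -0.65 ± 0.20 (SE, adjusted p = 0.0334) and -0.41 ± 0.19 (SE, adjusted p = 0.162). Timd4, a phosphatidylserine receptor of long-lived resident macrophages, was at 4.28, 4.55, 3.13 and 7.86 CPM in ff;ff and at 2.82, 2.01, 3.49 and 2.18 CPM in Cpt2L-/-, a log2 value of -0.93 ± 0.31 (SE, adjusted p = 0.0427), against -0.43 ± 0.29 (SE, adjusted p = 0.362) in DKO. Both calls in Cpt2L-/- were thus close to the threshold, with overlapping livers. They were lost without ffff248, Cpt2164, Cpt2166 or Cpt2802, for Vsig4 also without ffff238 and for Timd4 also without ffff240, with adjusted p-values from 0.0673 to 0.162 and log2 values from -0.62 to -0.50 for Vsig4 and -0.97 to -0.62 for Timd4.

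Cd5l was lower in all DKO livers, at 34.9, 36.8, 37.8 and 33.0 CPM, than in ff;ff, at 63.2, 39.0, 50.3 and 82.1 CPM. Its log2 value was -0.72 ± 0.20 (SE, adjusted p = 0.0263) in DKO and -0.29 ± 0.22 (SE, adjusted p = 0.371) in Cpt2L-/-. Csf1r was at 25.0, 26.2, 28.3 and 25.6 CPM in DKO against 28.1, 35.7, 37.6 and 53.6 CPM in ff;ff, with 1 DKO liver just above the lowest ff;ff liver (log2 -0.57 ± 0.18 SE, adjusted p = 0.0497), and its log2 value in Cpt2L-/- was -0.27 ± 0.18 (SE, adjusted p = 0.315). The call of Cd5l was lost without ffff248, DKO232, DKO233 or DKO943 (adjusted p from 0.0557 to 0.0823, log2 -0.74 to -0.52), and that of Csf1r without ffff240, ffff242, ffff248 or any single DKO liver (adjusted p from 0.0665 to 0.157, log2 -0.60 to -0.38). Adgre1, which encodes F4/80, was not called, with log2 values of -0.33 ± 0.20 (SE, adjusted p = 0.251) and -0.49 ± 0.21 (SE, adjusted p = 0.147).

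**Figure D3:**
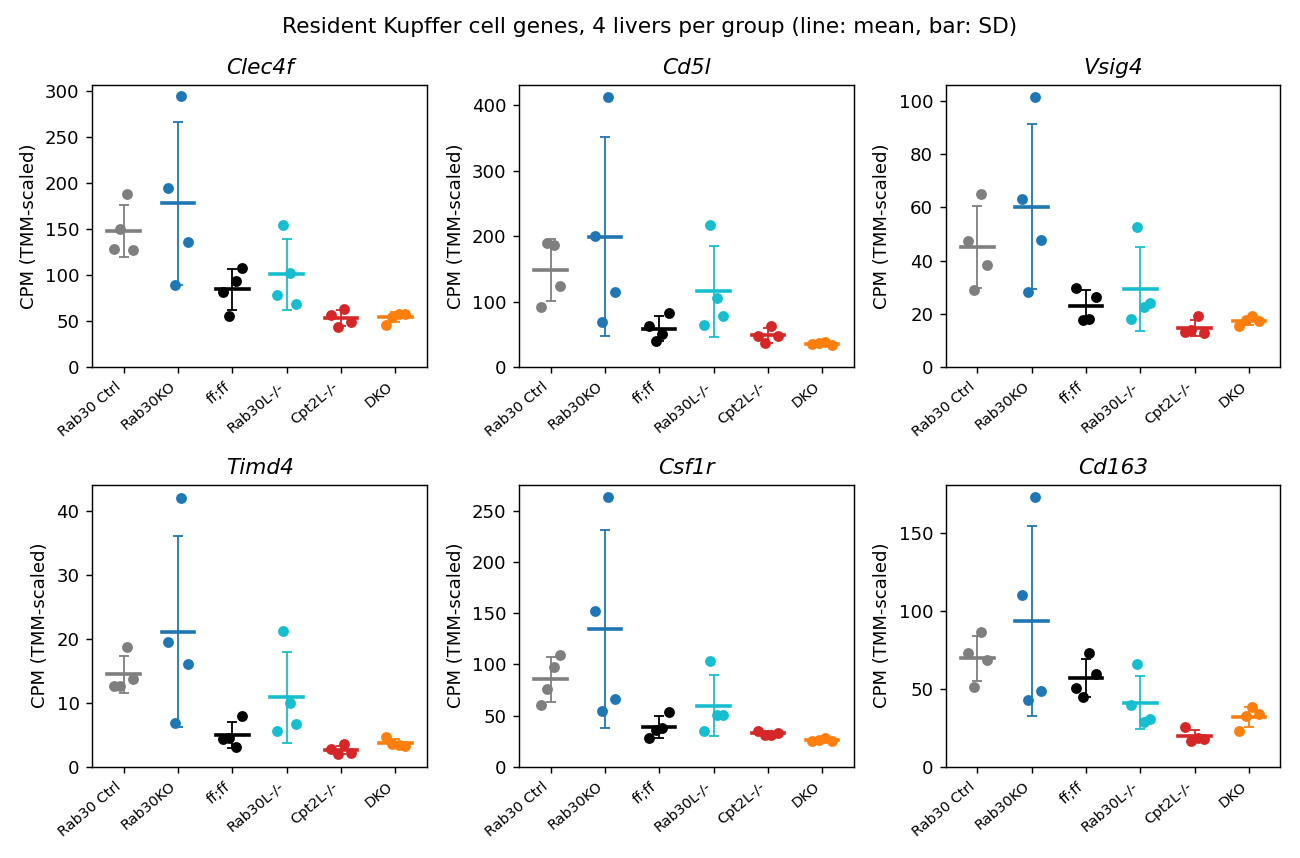
Levels of Clec4f, Cd5l, Vsig4, Timd4, Csf1r and Cd163 (1 panel each, CPM on the vertical axis) in each of the 4 livers of the 6 groups, with the group mean as a line and the SD as a bar. Cd163 is lower in every Cpt2L-/- and DKO liver than in every ff;ff liver. Cd5l lies at 33.0 to 37.8 CPM in DKO, below every ff;ff liver, and at 412 CPM in KO3, the highest Rab30KO liver.

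The promoters of Clec4f (chr6:83656067-83656366, minus strand) and Timd4 (chr11:46810549-46810848, plus strand) are shown because both fell in Cpt2L-/- and both windows hold GGAAGT, the PU.1 core, and AGGTCA, the half-site of nuclear receptors, a class to which Kupffer cell regulators such as LXR alpha belong. Capitals mark GGAAGT and AGGTCA or its reverse complement TGACCT, with windows, build and direction as above.
Clec4f: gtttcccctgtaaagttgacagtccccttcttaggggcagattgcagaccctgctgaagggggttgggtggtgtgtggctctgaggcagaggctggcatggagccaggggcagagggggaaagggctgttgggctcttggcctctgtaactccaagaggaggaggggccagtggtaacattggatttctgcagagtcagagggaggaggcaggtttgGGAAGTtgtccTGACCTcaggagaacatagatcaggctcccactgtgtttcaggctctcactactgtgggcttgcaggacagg
Timd4: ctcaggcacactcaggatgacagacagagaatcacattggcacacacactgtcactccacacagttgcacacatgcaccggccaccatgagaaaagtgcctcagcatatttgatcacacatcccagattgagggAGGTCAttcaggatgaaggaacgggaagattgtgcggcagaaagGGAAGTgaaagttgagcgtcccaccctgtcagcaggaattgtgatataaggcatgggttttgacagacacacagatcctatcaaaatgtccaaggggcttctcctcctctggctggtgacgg
Of the 7 members called lower in either group, 5 have a promoter in the table. AGGTCA was found in 2 of these 5 and in 8 of 32 members with one, against 16.3% of all promoters, and GGAAGT in 3 of the 5. TGAGTCA, found above in Gpnmb and Cd68, was in 0 of the 5.

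Of the scavenger receptors, Cd163 had the firmest fall. This receptor, which takes up complexes of haemoglobin and haptoglobin, was at 50.6, 44.5, 72.8 and 59.9 CPM in ff;ff, at 25.2, 16.7, 18.3 and 17.8 CPM in Cpt2L-/-, and at 23.1, 32.6, 38.5 and 33.6 CPM in DKO. Both groups were lower than ff;ff without overlap. Cd163 fell 2.94-fold in Cpt2L-/- (log2 -1.56 ± 0.19 SE, adjusted p = 8.03e-05) and 1.79-fold in DKO (log2 -0.84 ± 0.19 SE, adjusted p = 0.011), and both calls held without any single library. The DKO level was higher than that of Cpt2L-/- by 0.72 ± 0.18 on the log2 scale, with an adjusted p of 0.0527, which passed the threshold without Cpt2164 (0.87, adjusted p = 0.0339) or DKO232 (0.85, adjusted p = 0.0351). Marco, which binds bacteria and particles, had log2 values of -0.91 ± 0.43 (adjusted p = 0.151) and -1.04 ± 0.41 (adjusted p = 0.109), and the mannose receptor Mrc1, which sinusoidal endothelial cells also make, of -0.43 ± 0.16 (adjusted p = 0.0655) and -0.03 ± 0.17 (adjusted p = 0.937).

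Of these falls, a fit over all 24 libraries, in which all 6 groups share 1 estimate of the spread, kept only that of Cd163 in Cpt2L-/- (adjusted p = 0.00235). In that fit, adjusted p-values in Cpt2L-/- were 0.0882 for Clec4f, 0.194 for Vsig4, 0.149 for Timd4 and 0.0919 for Atp6v0d2, and in DKO 0.123 for Clec4f, 0.284 for Cd5l, 0.342 for Csf1r and 0.101 for Cd163.

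Among Kupffer cell genes outside the members, 14 of which were tested in each comparison, Cpt2L-/- had 1 called higher and 3 lower, and DKO 4 lower. The complement genes C1qa, C1qb and C1qc, which macrophages produce, fell in DKO by 1.27 ± 0.31, 0.72 ± 0.22 and 0.83 ± 0.21 (SE) on the log2 scale. Id3, a factor needed for Kupffer cell development, rose in Cpt2L-/- by 1.28 ± 0.34, whereas C6 fell by 1.41 ± 0.21 and Maf by 0.61 ± 0.16. Of the chemokines and growth factors of macrophages, 8 were tested in Cpt2L-/- and 3 fell, namely Cxcl1 by 1.48 ± 0.48, Ccl24 by 1.31 ± 0.38 and Ccl9 by 1.29 ± 0.21, and in DKO 1 of 9 fell, Ccl9, by 0.87 ± 0.21.

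The other lists of related genes held 1 or 2 calls each. Of further monocyte genes, 1 of 6 fell in Cpt2L-/-, the matrix protein fibronectin, Fn1, by 0.66 on the log2 scale. Of the class II pathway, 1 of 6 rose in Cpt2L-/-, the class II promoter factor Rfx5, by 0.64, and 1 of 5 fell in DKO, the lysosomal thiol reductase Ifi30, by 0.66. Of signalling and oxidase partners, 14 were tested in each comparison, and Fcgr3, described further on, rose in Cpt2L-/- while the oxidase subunit Ncf1 fell in DKO by 1.27. Of the Toll-like receptor and inflammasome genes, the lipopolysaccharide-binding protein Lbp fell by 0.56 and the cytokine Il18 by 1.64 in Cpt2L-/-, of 14 tested, and Il18 by 1.29 in DKO, of 15. Over all 100 related genes, 17 of 77 tested were called in Cpt2L-/- and 13 of 79 in DKO, shares close to the 23.8% and 16.1% of all tested genes.

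The remaining roles held few calls. None of the 4 MHC class II genes, with which macrophages, dendritic cells and B cells present antigen, was called in Cpt2L-/- or DKO by the fit used here. Their summed level was 45.7 to 63.7 CPM in ff;ff, 23.6 to 46.8 CPM in Cpt2L-/- and 32.0 to 68.5 CPM in DKO, and Cd74, the invariant chain, was closest to a call with a log2 value of -0.60 ± 0.23 (SE, adjusted p = 0.0777) in Cpt2L-/-. Cd74 was called lower there without the low-count filter (adjusted p = 0.0218) and without ffff242 (adjusted p = 0.0417). Ccr2, the chemokine receptor of incoming monocytes and the one recruited monocyte gene of 4 that could be tested, was at 0.418 to 1.14 CPM in ff;ff, 0.453 to 1.07 CPM in Cpt2L-/- and 0.580 to 1.30 CPM in DKO. Il1b, the cytokine interleukin-1 beta, was at 0.557 to 1.06 CPM in ff;ff and at 0.320, 1.95, 3.82 and 1.62 CPM in Cpt2L-/-, so that 3 Cpt2L-/- livers were above ff;ff and 1 below (log2 1.2 ± 0.55 SE, adjusted p = 0.141). Ccl2, the ligand of Ccr2, was at 1.12, 0.258, 0.195 and 0.375 CPM in DKO and at 0.175, 0, 0 and 0 CPM in ff;ff, and the 2 settings that tested it, DESeq2 and edgeR without the low-count filter, called it higher in DKO (adjusted p = 0.0354 and 0.0193). Lyz2, Ctss, Tyrobp, Fcgr1, Aif1, Ptprc and Cybb had log2 values between -0.37 and 0.77 in Cpt2L-/- and between -0.58 and 0.21 in DKO, with no call.

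Markers of other cells were set beside these values. Of the 66 genes of 10 other cell types, 34 could be tested in Cpt2L-/- and 11 were called, all lower, where 11.9% of all tested genes were called lower, and in DKO 5 of 36, all lower, where 8.24% were. The DKO calls included the bile duct factor Sox9 and the hepatocyte genes Alb, Ttr and Ass1, and the Cpt2L-/- calls included these and Cd4, Clec4g, Hba-a1, Hbb-bs, Hbb-bt and Alas2. All 7 genes of the hepatocyte list summed to 93623 to 123976 CPM in ff;ff, to 43923 to 52538 CPM in Cpt2L-/- and to 57852 to 70686 CPM in DKO. Sinusoidal endothelial genes summed to 212 to 330, 220 to 267 and 221 to 306 CPM in the same order, and neutrophil genes to 1.74 to 3.55, 1.63 to 4.53 and 0.455 to 3.28 CPM. The part that the lower hepatocyte levels had in the changes of the members was not tested.

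**Figure D4:**
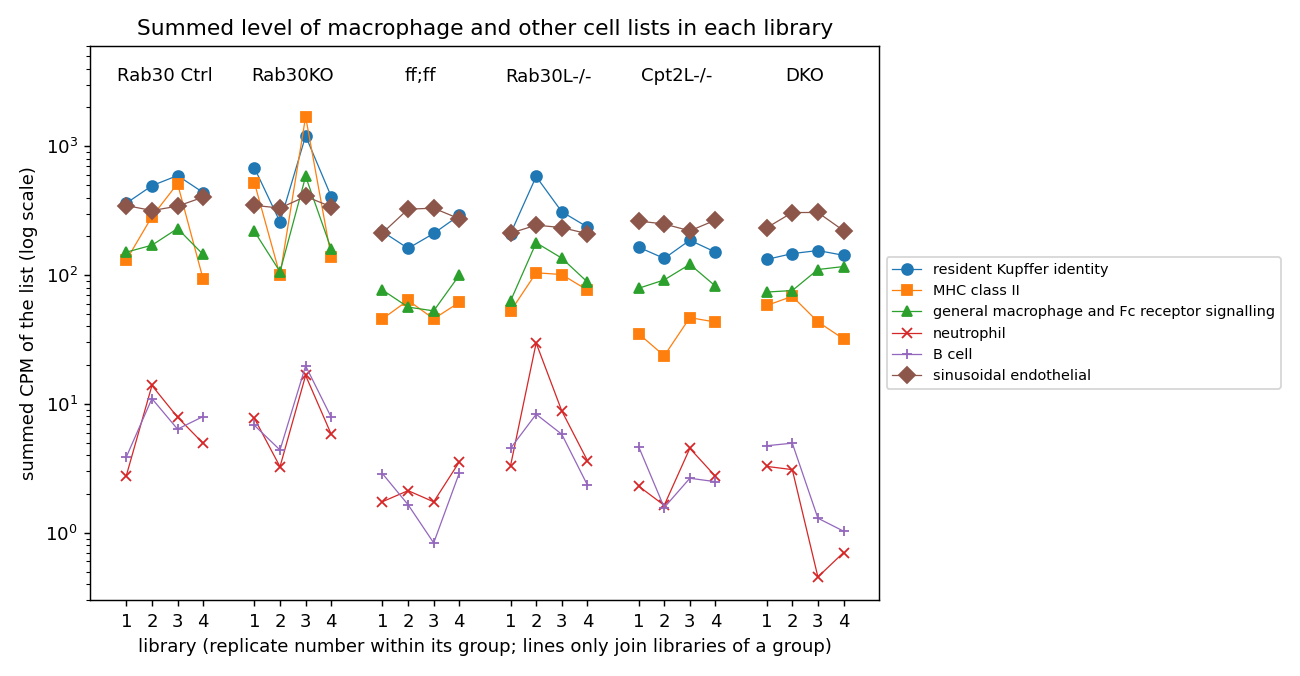
Summed level (CPM, log axis) of the Kupffer identity, MHC class II, general macrophage, neutrophil, B cell and sinusoidal endothelial genes in each liver of the 6 groups. Class II genes reach 1695 CPM in KO3 and neutrophil genes 29.7 CPM in Rab30cff978, while the endothelial sums of all 24 livers lie between 209 and 408 CPM.

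Fcer1g was the one member of 33 tested that edgeR called between DKO and Cpt2L-/-, where 2.71% of all tested genes were called (1.38% higher and 1.33% lower). It encodes the common gamma chain through which Fc receptors signal (chr1:171229572-171234365, GRCm38, minus strand, protein coding). Its level was 1.48, 1.77, 0.905 and 2.35 CPM in ff;ff, 3.52, 4.09, 5.30 and 4.68 CPM in Cpt2L-/-, 1.67, 1.68, 1.04 and 2.44 CPM in DKO, and 2.04, 6.84, 6.28 and 3.34 CPM in Rab30L-/-. All Cpt2L-/- livers were above all ff;ff and DKO livers, whose ranges overlapped, and 3 of 4 Rab30L-/- livers were above that range too. Fcer1g rose in Cpt2L-/- (log2 1.41 ± 0.30 SE, adjusted p = 0.00404), was lower in DKO than in Cpt2L-/- (log2 -1.34 ± 0.27 SE, adjusted p = 0.0283), and differed from ff;ff by 0.07 ± 0.37 (SE, adjusted p = 0.931) in DKO and by 1.49 ± 0.41 (SE, adjusted p = 0.181) in Rab30L-/-. Gpnmb, Csf1r and Fcer1g were lower in every DKO liver than in every Cpt2L-/- liver, where 13% of all tested genes had no overlap. The call of Fcer1g between DKO and Cpt2L-/- was lost without DKO232, DKO233, Cpt2166, Cpt2801 or Cpt2802, with log2 values of -1.37 to -1.24 and adjusted p-values of 0.064 to 0.0992, and in the fit over all 24 libraries (adjusted p = 0.162, Fcer1g).

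The effect of Rab30 loss with Cpt2 absent was tested against its effect with Cpt2 present in the 16 livers of ff;ff, Rab30L-/-, Cpt2L-/- and DKO. Fcer1g was the one member of 36 called in this interaction, where 4.06% of all tested genes were called (2.2% higher and 1.86% lower), with a log2 value of -2.82 ± 0.51 (SE, adjusted p = 0.00446). The call held without each of the 16 libraries, with values from -3.06 to -2.58. Interaction values of Il1b (-2.81 ± 0.86 SE, adjusted p = 0.0705) and Cd163 (1.2 ± 0.34 SE, adjusted p = 0.0543) lay closest to the threshold among the rest.

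Other genes of Fc receptor signalling were set beside Fcer1g. Fcgr3, an activating receptor for IgG that signals through the Fcer1g chain and is no member, was at 2.27, 1.54, 2.44 and 2.66 CPM in ff;ff, 4.67, 5.03, 6.21 and 4.99 CPM in Cpt2L-/-, and 1.39, 0.838, 2.14 and 2.72 CPM in DKO, with an interaction of -2.91 ± 0.45 (SE, adjusted p = 0.0012). Its Cpt2L-/- livers were all above its ff;ff and DKO livers, as for Fcer1g. Of the IgG receptors beside Fcgr3 on chromosome 1, the inhibitory Fcgr2b had an interaction of -0.10 ± 0.23 (SE, adjusted p = 0.837) and Fcgr4 of -2.03 ± 0.64 (SE, adjusted p = 0.083). Fcgr1, the high-affinity IgG receptor on another chromosome, had an interaction of -1.16 ± 0.60 (SE, adjusted p = 0.27), and Tyrobp, a like adaptor on chromosome 7, of -1.11 ± 0.46 (SE, adjusted p = 0.168).

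The start of Fcgr3 lies at -178 kb from that of Fcer1g on the same chromosome, so the neighbours of Fcer1g were counted, in a window set after its values were seen. Within 3 Mb on each side, 19 of 68 tested genes (27.9%) were called in the interaction, against 3.94% of genes elsewhere. The same window held 13.1% called between DKO and Cpt2L-/- against 2.66% elsewhere, 7.81% between Rab30L-/- and ff;ff against 0.444%, and 36.1% between Cpt2L-/- and ff;ff against 23.7%. Between DKO and ff;ff it held 13.6%, against 16.1% elsewhere, and between Rab30KO and Rab30 Ctrl 0 of 75 genes. Among the called neighbours, Dusp12, a phosphatase gene, was at 2.36 to 3.42 CPM in ff;ff and 2.27 to 5.58 CPM in DKO, and at 5.80 to 10.1 CPM in Cpt2L-/- and 7.77 to 11.5 CPM in Rab30L-/-. Mndal, an interferon-inducible gene, had 0, 0, 0.139 and 0 CPM in ff;ff and 0, 0, 0.0650 and 3 CPM in DKO, against 3.58 to 6.85 CPM in Cpt2L-/- and 4.68 to 7.74 CPM in Rab30L-/-. Ifi202b, of the same family, had 1.67 to 3.05 CPM in ff;ff, 1.31 to 2.38 CPM in DKO, 0.603 to 2.47 CPM in Rab30L-/-, which overlaps with both, and no count in any Cpt2L-/- liver. The labels tie ff;ff to DKO as littermates and give no such tie for Cpt2L-/- or Rab30L-/-, so that genotype at Rab30 and Cpt2 and descent of this stretch of chromosome 1 cannot be told apart for Fcer1g. These neighbours, like the window, were chosen after their values were seen.

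**Figure D5:**
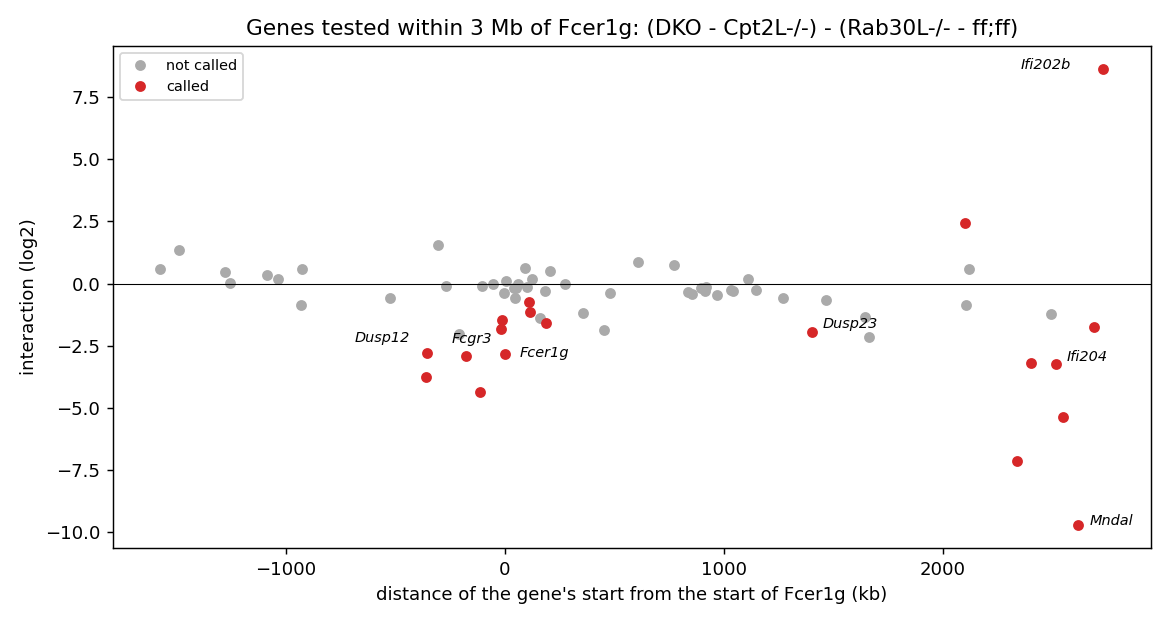
Interaction of Rab30 and Cpt2 loss (log2, vertical axis) of each tested gene against the distance of its start from that of Fcer1g (kb, horizontal axis), with called genes marked. Of the 68 genes, 19 are called, on both sides of Fcer1g at -2.82; values of genes with no counts in a group depend on a constant added in the fit.

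Loss of Rab30 alone gave no called member in the fits used here. In Rab30L-/- against ff;ff, 0 of 33 tested members were called by edgeR, where 0.479% of all tested genes were; 13 members had an unadjusted p under 0.05, against 11.2% of all tested genes, and DESeq2 called 1, Fcer1g (adjusted p = 0.0321). Without the low-count filter edgeR called Fcer1g (adjusted p = 0.0161) and Cd74 (adjusted p = 0.0477) higher. Lgals3 was the one member whose livers did not overlap between these groups, where 6.38% of all tested genes had no overlap. The median log2 value of the members was 0.66 and became 0.36 without Rab30cff978. Members with the lowest p were Fcer1g, Cd74 (log2 0.68 ± 0.21 SE, adjusted p = 0.23) and Aif1, a calcium-binding protein of macrophages (log2 1.58 ± 0.53 SE, adjusted p = 0.286). Marco shows how far livers of the group differed, at 2.79, 50.3, 32.7 and 3.26 CPM in Rab30L-/- against 1.31 to 6.34 CPM in ff;ff (log2 2.64 ± 1.06 SE, adjusted p = 0.427). For Marco, 2 Rab30L-/- livers were thus within the ff;ff range and 2 far above it. Without Rab30cff978 the log2 values were 1.25 for Fcer1g, 0.58 for Cd74, 1.27 for Aif1 and 1.86 for Marco, with adjusted p-values from 0.44 to 0.68. In Rab30cff978 the neutrophil genes summed to 29.7 CPM against 3.32 to 8.84 CPM in the other Rab30L-/- livers, and their part in that liver's values was not tested.

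In Rab30KO against Rab30 Ctrl, 0 of 34 tested members were called by edgeR or by DESeq2 and 0 had an unadjusted p under 0.05, where 0.022% of all tested genes were called by edgeR and 2.21% had such a p. The median log2 value of the members was 0.52 with all libraries and -0.06 without KO3. Cd74 was at 261, 53.2, 820 and 49.7 CPM in Rab30KO and at 58.9, 125, 248 and 47.8 CPM in Rab30 Ctrl, and Lyz2 at 40.5, 37.1, 198 and 45.1 CPM against 49.1, 50.3, 68.8 and 49.6 CPM. KO3 was above every control liver in both. Of the 3 other Rab30KO livers, 1 was just above the controls in Cd74 and 2 were within their range, and all 3 were below the controls in Lyz2. In KO3 the Kupffer identity genes summed to 1201 CPM (258 to 680 in the other Rab30KO livers), the class II genes to 1695 CPM (99.8 to 521), B cell genes to 19.8 CPM (4.40 to 7.88) and sinusoidal endothelial genes to 408 CPM (331 to 348). Neutrophil genes summed to 16.7 CPM in KO3 (3.26 to 7.73) and T cell genes to 13.6 CPM (2.58 to 6.83). Its sums of stellate cell and hepatocyte genes lay within the range of the other Rab30KO livers. What sets KO3 apart was not tested.

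Levels of the 2 control groups were set side by side without a test, since they come from different crosses. In 21 of 36 members every Rab30 Ctrl liver was above every ff;ff liver, and in 0 every one was below, where 5.76% of all genes had all Rab30 Ctrl livers higher. Among the 6 Kupffer identity genes this held for 5, with ratios of group means of 1.76 for Clec4f, 2.52 for Cd5l and 2.91 for Timd4. The ratio was 4.27 for Cd74 and 5.36 for Fcer1g. For comparison, the fitted falls of these 3 genes in Cpt2L-/- or DKO were at most 1.90-fold.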

How the data were processed

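RNA of 24 livers, 4 in each of 6 groups, was sequenced by Novogene, and groups were taken from the genotype labels. The authors deposited raw read counts per gene, made after alignment, and FPKM values, that is counts per kilobase of transcript scaled to the library's depth. The processing notes name HISAT2, DESeq2 and the build GRCm38 (mm10), without versions. The read counter, the annotation and whether strand was used are not given in the sources used here, so overlapping and antisense genes and gene families may share reads. The coordinates of 35 of the 41 members equal those of GENCODE M21 for GRCm38. A table of normalised counts and 5 tables of the authors' own comparisons, with fold changes and p-values, were not used.

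Counts were fitted with edgeR 4.0.16 in R 4.3.3 (filterByExpr, TMM scaling, quasi-likelihood fit with robust dispersion), each comparison on its own 8 libraries and the interaction on 16. CPM are counts scaled to libraries of 1000000 by TMM factors of all 24 libraries, and FPKM as deposited served for levels between genes. A gene was called at a Benjamini-Hochberg adjusted p under 0.05 over all tested genes and at least 1.2-fold change. SE are the log2 fold change divided by the root of the quasi-likelihood F. Other settings tried were DESeq2 1.42.0 (its size factors, and its Wald test), 1 model for the 24 libraries together, keeping low genes or asking for 10 counts in each library, fold thresholds of none or 1.5, and each library left out in turn. The pipeline was tested on simulated counts. All 36 pairs of libraries of the same group differed by more than counting noise. Each animal gave 1 library. The p-values set a group difference against the spread between animals within groups, with no term for litter or cross.

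The members and lists were chosen with earlier results of these data known. Values per library are given mostly for members called in a comparison or of highest FPKM in their list. Spp1 and Mrc1, highest in theirs, are given mainly as log2 values, while Mmp12, Ccl2 and Marco also have values per library. Of each related list up to 3 called genes were named by size of change. Where 5 or fewer were called, the rest were named after their values were seen, apart from some genes that are counted in their lists but not reported here. Promoters were read from a RefSeq table (GRCm38.p6), which held 32 of the 41 members.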

Additional observations from a re-analysis of the deposited data

Results flagged for a closer look

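In groups of 4 livers, a value was singled out when its gap to the nearest other liver took up more of the group's range than Dixon's test allows at the 95% level. Of 120 such groups, from 20 members in 6 genotypes, 11 had one. For a single group chance gives about 1 in 20, but the 120 groups share 24 livers and 1 liver can stand out in several members. The count of 11 can therefore not be set against chance. In Rab30L-/- the liver Rab30cff978 was far above the others in Vsig4 (52.6 CPM), Lgals3 (7.74 CPM) and Cd14 (10.8 CPM), and Rab30cff741 in Cd9 (13.3 CPM). KO3 was far above the other Rab30KO livers in Gpnmb (3.90 CPM) and Lyz2 (198 CPM), and WT281 above the other Rab30 Ctrl livers in Lyz2 (68.8 CPM). Among livers without Cpt2, Cpt2801 was high in Vsig4 (19.0 CPM), DKO233 high in Atp6v0d2 (1.48 CPM) and DKO232 low in Mrc1 (45.3 CPM), and ffff242 was low in Ccr2 (0.418 CPM) among ff;ff livers. For Fcer1g the difference of DKO from Cpt2L-/- was unlike that of Rab30L-/- from ff;ff, with an interaction of -2.82 on the log2 scale, in which genotype and descent of that stretch of chromosome 1 cannot be told apart.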

How the results depend on the processing

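No paired analysis was possible because the labels do not say which animals share a litter. The number of members called in DKO against ff;ff was 9, and 5 in the fit over all 24 libraries, all of them higher, with 6 to 10 when single libraries were left out. In Cpt2L-/- against ff;ff it was 12, 8 in the fit over all 24 libraries (Gpnmb, Cd63, Cd68, Lgals3, Cd9, Fcer1g and Mmp12 higher and Cd163 lower), of which Mmp12 was not among the 12, and 8 to 15 without single libraries. Between DKO and Cpt2L-/- 1 member was called, 4 by the DESeq2 Wald test (Mrc1, Cd163, Fcer1g and Gpnmb), 2 without the low-count filter, 0 in the fit over all 24 libraries and 0 to 2 without single libraries. In Rab30L-/- against ff;ff 0 were called, 1 by the Wald test, 2 without the low-count filter and 0 to 1 without single libraries, the 1 being Atp6v0d2 without Rab30cff741 (log2 2.04, adjusted p = 0.0314 by edgeR). In the interaction 1 was called, 4 by the Wald test (Cd5l, Cd163, Fcer1g and Il1b) and 1 to 3 without single libraries. In Rab30KO against Rab30 Ctrl 0 were called under every alternative run. The causes of these differences were not tested. No called member reversed under the alternatives run, but the members' median log2 value ran from -0.06 to 0.78 in Rab30KO against Rab30 Ctrl and from -0.04 to 0.20 in DKO against Cpt2L-/- when single libraries were left out. Of the 12 calls in Cpt2L-/-, 6 were kept with every left-out library and under every alternative that tested them, and of the 9 in DKO, 5 were, with Gpnmb in both counts not tested where 10 counts were asked of each library. Counts of 1 to 12 per ff;ff library limit the precision for Gpnmb, and 7 members were too low to test in Cpt2L-/-.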
